A study of Homo sapiens with 36 samples.

Results

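The 10 genes described here encode proteins of stress granules: G3BP1, G3BP2, CAPRIN1, TIA1, TIAL1, ATXN2, ATXN2L, UBAP2L, PABPC1 and FXR1. They were chosen by name, as known granule components, with earlier results of these data known. They make up 10 of the 60675 genes in the count table. All 10 were among the 31849 genes with enough counts to be tested. The libraries came from HEK293T, an established human embryonic kidney cell line, in 3 lines that carried a YTHDF1-ADAR, a YTHDF2-ADAR or a YTHDF3-ADAR fusion. Each fusion joins a YTHDF reader of N6-methyladenosine (m6A) to an ADAR enzyme, which edits adenosine to inosine in RNA it meets. Cells of every line received doxycycline at 1 ug/mL for 24 h, which the labels give as the inducer of the fusions. From each lysate, RNA was pulled down with antibodies against the cells' own YTHDF1, YTHDF2 or YTHDF3 protein (RNA immunoprecipitation, RIP), and part of the lysate served as input. This gave 12 groups of 3 libraries, 36 in all, and each comparison below has n = 3 against 3 unless said otherwise. Uninduced cells and a RIP with a control antibody were not analysed here. The sources used here do not say whether each line is 1 clone, or whether replicates came from separate cultures. The p-values therefore cover only the spread among the libraries at hand, which may be technical.

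Stress granules are assemblies of stalled mRNAs and proteins that form in the cytoplasm when translation initiation is blocked, most often after phosphorylation of the initiation factor eIF2α. G3BP1 and G3BP2 are the RNA-binding proteins whose condensation starts the assembly, and CAPRIN1, UBAP2L, TIA1 and the other members join or shape it. The YTHDF proteins enter these granules as proteins. The values below concern instead the mRNAs that encode the granule proteins, and how often each was recovered with a YTHDF antibody in these cells, for which the labels name no stress.

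Libraries held 12.5 to 37.5 M counts, and the 10 members together took 0.113% to 0.296% of a library. The least covered member value was a count of 252, for TIA1. In 6 libraries, the YTHDF1 RIPs of YTHDF2-ADAR cells and of YTHDF3-ADAR cells, the make-up was unlike that of the other 30. They held 12.5 to 16.3 M counts, with 54.1% to 74.2% from protein-coding genes against 71.5% to 92.4% in the others. Small nucleolar RNAs took 0.696% to 4.35% of them against 0.036% to 0.564%, and mitochondrial mRNAs 3.15% to 8.58% against 0.561% to 3.06%. Fitted without them, the YTHDF1 RIP of YTHDF1-ADAR cells again gave 0 members higher and 8 lower at the limit used below, and calls of other comparisons that were lost without them are named beside their values. As a check of the labels, the mean input level of YTHDF1 mRNA was 634 ± 97.4 TMM-scaled counts per 1000000 counts (CPM; mean ± SD, n = 3) in YTHDF1-ADAR cells and 87.9 and 94.0 in the other lines. YTHDF2 mRNA stood at 321 ± 2.26 in YTHDF2-ADAR cells against 154 and 197, and YTHDF3 mRNA at 123 ± 14.6 in YTHDF3-ADAR cells against 52.8 and 54.8. The level of ADARB1, the gene of human ADAR2, differed widely between the inputs, at 521 ± 40.0 in the YTHDF1-ADAR line, 58.2 ± 2.0 in the YTHDF2-ADAR line and 2091 ± 56.6 in the YTHDF3-ADAR line, and the labels do not say which ADAR gene the fusions carry. Markers of HEK293T cells were detected in every input (VIM at 238 to 369 and NEFL at 156 to 601 CPM without TMM scaling, with PAX2 lowest at 3.8 to 7.89), while the blood marker genes stayed at or under 0.194 and the hepatocyte marker genes at or under 0.301 on the same scale. Of the fibroblast markers COL1A1 was detected, at 13.8 to 30.2, and COL1A2, DCN and LUM stayed at or under 0.446. Of the adipocyte markers PLIN1 had 0.537 to 1.84 and ADIPOQ at most 0.033.

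In input RNA, the members spanned more than a 10-fold range of level per exon length. PABPC1, the cytoplasmic poly(A)-binding protein, was highest, with a median of 60.0 CPM per kb of exon over the 9 inputs (46.3 to 81.1). CAPRIN1, a cell cycle-associated partner of G3BP1, followed at 40.7 (26.4 to 53.3). UBAP2L, a ubiquitin-associated protein that promotes granule assembly, stood at 36.6 (30.1 to 41.9). The ataxin-2 relative ATXN2L was at 30.2 (26.3 to 41.6). G3BP1 had 14.6 (11.7 to 18.5) and its paralog G3BP2 13.0 (8.98 to 14.6). The prion-like splicing and translation regulator TIAL1 was at 12.2 (10.8 to 14.2). FXR1, a relative of the fragile X protein, had 9.05 (6.10 to 11.4), and the TIAL1 paralog TIA1 8.0 (6.63 to 9.56). ATXN2, ataxin-2, was lowest with 4.43 (3.66 to 4.91). In this order, neighbouring genes had overlapping ranges except ATXN2L and G3BP1, and TIA1 and ATXN2. The exon length counts every annotated exon base of a gene, 16540 for ATXN2 and 6607 for TIA1, and the order depends on it. In CPM without division by length, TIA1 was the lowest member, with input means of 50.5, 55.6 and 54.1 in the 3 lines. ATXN2 had 74.8, 75.1 and 65.4.

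**Figure D1:**
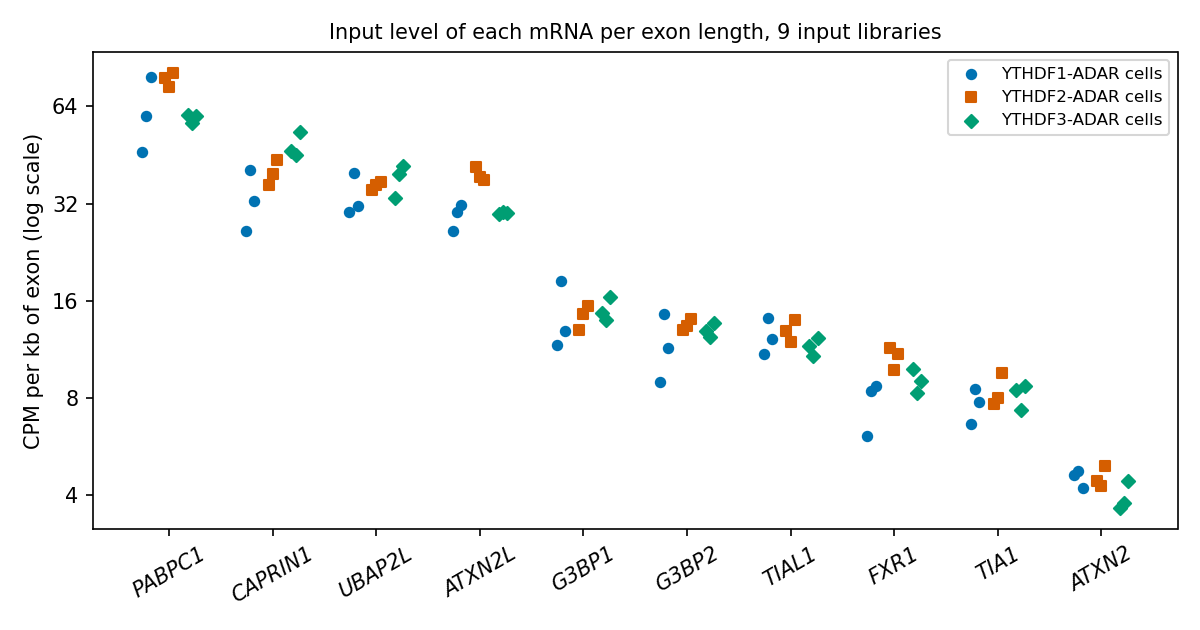
Level of each member mRNA in the 9 input libraries, in CPM per kb of exon on a log axis, with 1 point per library and a colour and marker per line. PABPC1 lies between 46.3 and 81.1 and ATXN2 between 3.66 and 4.91, below all points of the other 9 genes.

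Between the inputs of the 3 lines, CAPRIN1 was the member called. Of the 10 members, edgeR's quasi-likelihood test, with p-values adjusted by Benjamini-Hochberg over all 31849 genes and a limit of 0.05, called 0 between YTHDF1-ADAR and YTHDF2-ADAR cells. It called 1 between YTHDF1-ADAR and YTHDF3-ADAR cells, and 0 for YTHDF2-ADAR against YTHDF3-ADAR cells. Over all genes tested, 17.6%, 16.4% and 3.42% were called. When YTHDF1-ADAR input replicate 1 was left out, 1093 and 1095 genes were called in the first 2 comparisons in place of 5614 and 5233. Fewer genes were also called there when only the libraries compared were fitted, with that replicate kept. At an unadjusted p under 0.05 the members counted 2, 1 and 2, and DESeq2 called 2, 1 and 0. No share of all genes stands beside these counts, so they are not read as a result about the members. The member called was CAPRIN1, with input values of 240.2, 370.5 and 297 CPM in YTHDF1-ADAR cells (replicates 1, 2 and 3, as in every list below) and 425, 412 and 485 in YTHDF3-ADAR cells. Every YTHDF1-ADAR value was below every YTHDF3-ADAR value, and the log2 difference was -0.54 ± 0.19 (SE; adjusted p = 0.0445). The call was lost when YTHDF1-ADAR input replicate 1, or YTHDF3-ADAR input replicate 1 or 3, was left out (log2 differences from -0.68 to -0.43, adjusted p from 0.0553 to 0.278).

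Against the input of the same line, most members were depleted in the YTHDF1 RIP. PABPC1 and FXR1 fell in all 3 lines, by 0.72 to 1.81 on the log2 scale, and TIA1 and TIAL1 fell in all 3 as well, by 0.31 to 1.97 (upper-quartile scaling turned TIA1 in YTHDF2-ADAR cells and TIAL1 in YTHDF2-ADAR and YTHDF3-ADAR cells to positive values). ATXN2 was the exception: it fell in YTHDF1-ADAR cells and rose in the other lines. In YTHDF1-ADAR cells 0 members rose and 8 fell, beside 20.6% and 28.8% of all genes tested. In YTHDF2-ADAR cells 1 rose and 7 fell, beside 41.8% and 33.4%. In YTHDF3-ADAR cells 1 rose and 6 fell, beside 40.8% and 32.4%. The members' median log2 difference was -0.90, -0.42 and -0.57 in the 3 lines, where the median of all genes tested was -0.28, 0.20 and 0.21. Under upper-quartile scaling 1 rose and 3 fell in YTHDF2-ADAR cells and 2 rose and 3 fell in YTHDF3-ADAR cells, and with total counts 1 rose and 3 fell, and 1 rose and 4 fell. Under upper-quartile scaling the median of all genes in YTHDF2-ADAR and YTHDF3-ADAR cells moved to 0.74 and 0.75, so a difference in those 2 lines is read against the median of all genes under the same scaling. All comparisons of one line share its 3 inputs. In these bulk libraries, a message bound in fewer cells and one bound less often per cell cannot be told apart.

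**Figure D2:**
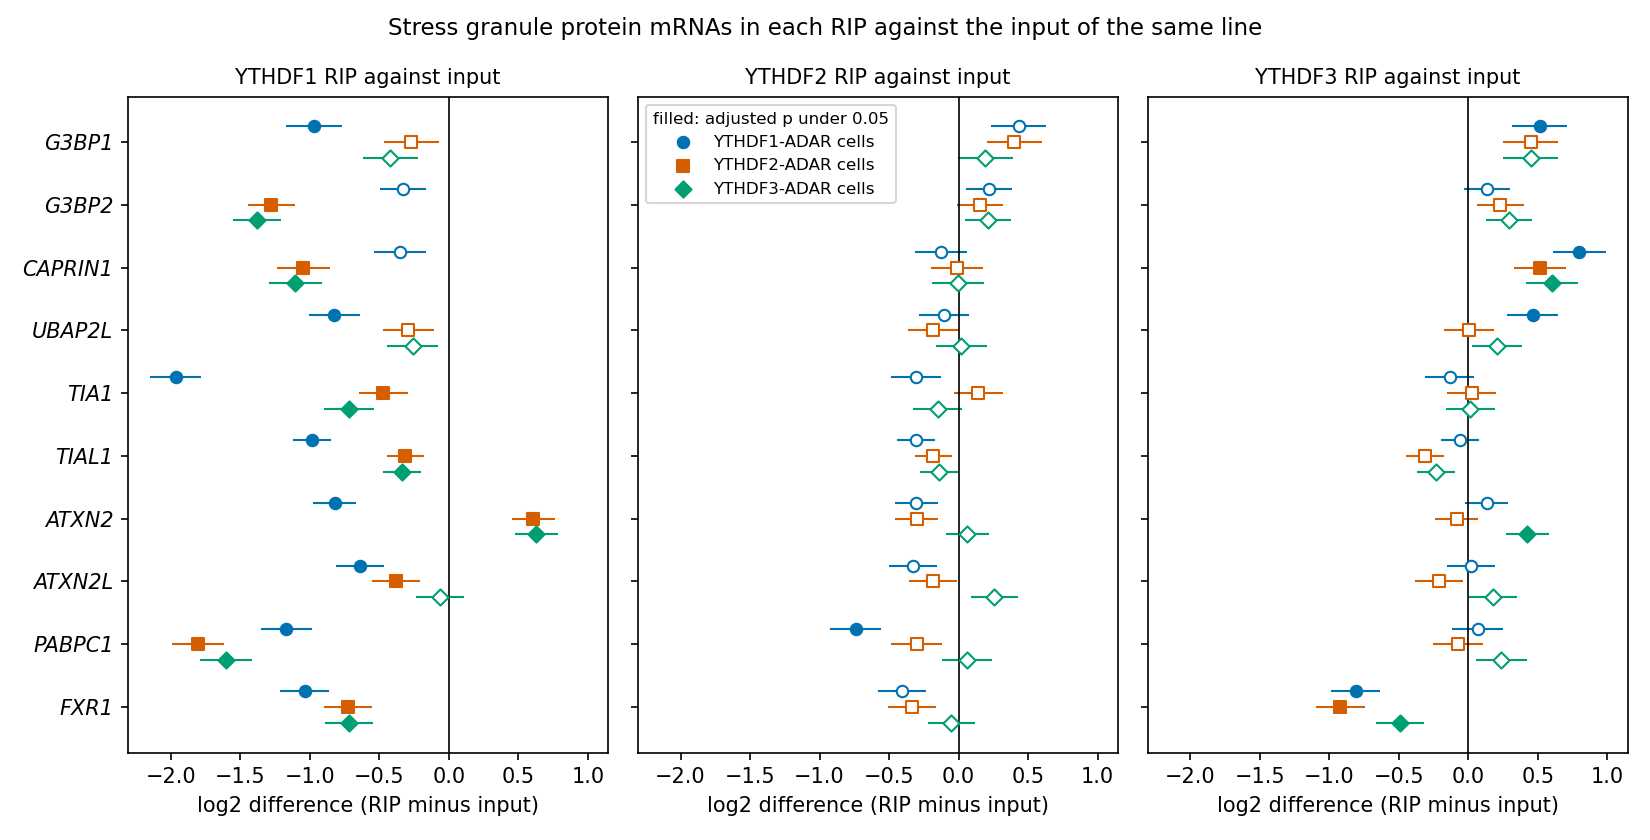
Log2 difference of each member mRNA between a RIP and the input of the same line, 1 panel per RIP, with bars of 1 SE and a marker per line. Filled points have an adjusted p under 0.05. In the YTHDF1 panel PABPC1 lies between -1.81 and -1.17, while ATXN2 lies at -0.82 in YTHDF1-ADAR cells and at 0.61 and 0.63 in the others.

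G3BP1 and G3BP2 are paralogs, yet they changed places between the lines in the YTHDF1 RIP. G3BP1 (chr5:151771045-151812911, plus strand, GRCh38) had 128.5, 112 and 200.3 CPM in the YTHDF1 RIP of YTHDF1-ADAR cells against 234, 370.2 and 259 in input. All RIP values were below all input values, and G3BP1 fell by 0.97 ± 0.20 (log2 ± SE; adjusted p = 8.92e-05). In YTHDF2-ADAR cells its RIP values were 254, 231 and 229 against 261, 292 and 308.5 in input, and in YTHDF3-ADAR cells 245, 227 and 204 against 294, 279 and 331. The RIP libraries were again the lower ones without overlap, but the log2 differences of -0.27 ± 0.20 and -0.42 ± 0.20 did not pass (adjusted p = 0.21 and 0.0546).

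For G3BP2 (chr4:75641849-75724589, minus strand) the order was the opposite. The YTHDF1 RIP of YTHDF1-ADAR cells gave 111, 98.2 and 175 CPM against 124, 201 and 158 in input. These values overlapped, with a log2 difference of -0.33 ± 0.17 (adjusted p = 0.1). In YTHDF2-ADAR cells the RIP held 76.4, 75.8 and 77.7 against 179, 184 and 194 in input, and in YTHDF3-ADAR cells 70.2, 73.5 and 62.7 against 178, 171 and 188. Every RIP value there was under 100 and every input value over 150, and G3BP2 fell by 1.28 ± 0.17 and 1.38 ± 0.17 (adjusted p = 4.68e-08 and 1.31e-08).

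CAPRIN1, which binds the G3BP proteins directly, was called in the same 2 lines as G3BP2. CAPRIN1 (chr11:34051731-34102610, plus strand) had 209, 212 and 291 CPM in the YTHDF1 RIP of YTHDF1-ADAR cells against 240.2, 370.5 and 297 in input. The groups overlapped and the log2 difference was -0.35 ± 0.19 (adjusted p = 0.124). The RIP values were 178, 169 and 180.0 against 332, 359 and 396.5 in YTHDF2-ADAR cells and 224, 208 and 183 against 425, 412 and 485 in YTHDF3-ADAR cells. Both sets were separated, the RIP lower, and CAPRIN1 fell by 1.05 ± 0.19 and 1.11 ± 0.19 (adjusted p = 1.07e-05 and 5.22e-06).

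UBAP2L (chr1:154220179-154271510, plus strand), a G3BP-binding protein, was depleted in YTHDF1-ADAR cells. Its RIP values were 125, 138 and 166 CPM against 226, 299 and 235 in input, with no overlap, and it fell by 0.82 ± 0.18 (adjusted p = 2.45e-04). In the other lines the RIP held 218, 225 and 227 against 264, 275 and 281, and 199.7, 268 and 252 against 250.4, 297 and 314.5. The RIP was below input without overlap in YTHDF2-ADAR cells and overlapped it in YTHDF3-ADAR cells, and the log2 differences of -0.29 ± 0.18 and -0.26 ± 0.18 did not pass (adjusted p = 0.145 and 0.194). The counts were made without strand, and 127 of the 7503 exon bases of UBAP2L are shared with the small nucleolar RNA gene SNORA58B.

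TIA1 and TIAL1, the RNA-binding paralogs that sort stalled initiation complexes into granules, were depleted with YTHDF1 in every line, most in YTHDF1-ADAR cells. TIA1 (chr2:70209444-70248660, minus strand) had 10.8, 10.2 and 17.7 CPM in the YTHDF1 RIP of YTHDF1-ADAR cells and 43.8, 56.4 and 51.4 in input. No RIP value reached 18 and no input value was under 43, and the fall of 1.97 ± 0.19 on the log2 scale was the largest of any member in any RIP (adjusted p = 4.90e-11). RIP values were 42.3, 37.5 and 40.6 against 50.7, 52.8 and 63.2 in YTHDF2-ADAR cells, and 35.8, 30.9 and 32 against 56.1, 48.7 and 57.6 in YTHDF3-ADAR cells. The RIP was lower without overlap in both, and TIA1 fell by 0.47 ± 0.18 and 0.72 ± 0.18 (adjusted p = 0.0177 and 6.22e-04). The call in YTHDF2-ADAR cells was lost without YTHDF1 RIP replicate 2 (-0.43, adjusted p = 0.0595). Under upper-quartile scaling and total counts the log2 difference itself turned positive, to 0.074 and 0.051. TIA1 shares 211 of its 6607 exon bases with C2orf42, whose reads cannot be told apart there.

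TIAL1 (chr10:119571802-119597029, minus strand) had 46, 35.8 and 57.1 CPM in the YTHDF1 RIP of YTHDF1-ADAR cells against 80.7, 104 and 89.9 in input. The separation was complete, and TIAL1 fell by 0.98 ± 0.14 (adjusted p = 1.56e-07). The RIPs of YTHDF2-ADAR and YTHDF3-ADAR cells held 83.3, 73.7 and 73.2 and 71.2, 61.8 and 69.1, against inputs of 95, 87.9 and 103 and 85.5, 79.2 and 90.6. Neither pair of groups overlapped, and the falls were smaller, 0.31 ± 0.14 and 0.34 ± 0.14 (adjusted p = 0.0376 and 0.0261). They turned to 0.23 and 0.21 under upper-quartile scaling, and the former was lost without YTHDF1 RIP replicate 2 (-0.29, adjusted p = 0.0975).

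ATXN2, a polyglutamine protein that binds poly(A)-binding protein and shapes granules, was the member that reversed. ATXN2 (chr12:111443485-111599676, minus strand) had 38.6, 42.1 and 46.2 CPM in the YTHDF1 RIP of YTHDF1-ADAR cells and 76.2, 78.5 and 69.6 in input. It fell by 0.82 ± 0.16, without overlap (adjusted p = 2.94e-05). In YTHDF2-ADAR cells the RIP held 117, 113.5 and 113 against 73.4, 70.8 and 81.2, and in YTHDF3-ADAR cells 97.1, 99.7 and 107 against 60.6, 62.5 and 73.2. Every RIP value was above every input value in both lines, and ATXN2 rose by 0.61 ± 0.15 and 0.63 ± 0.15 (adjusted p = 7.39e-04 and 5.42e-04). The rise in YTHDF2-ADAR cells did not pass when any 1 of 5 of the 6 libraries compared was left out, all but YTHDF1 RIP replicate 2 (0.25 to 0.33, adjusted p from 0.0945 to 0.206). That in YTHDF3-ADAR cells was lost without YTHDF1 RIP replicate 2 or input replicate 1 or 2 (0.26 to 0.33, adjusted p from 0.104 to 0.204). Leaving out 1 library moved the median of all genes too, from 0.20 to as low as -0.10 in YTHDF2-ADAR cells and from 0.21 to as low as -0.07 in YTHDF3-ADAR cells. Both rises passed under each other scaling and test tried (0.48 to 1.15 and 0.54 to 1.17). ATXN2 shares 69 of its 16540 exon bases with SH2B3 and 56 with its antisense gene ATXN2-AS.

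ATXN2L (chr16:28823035-28837237, plus strand), a paralog of ATXN2, fell in 2 lines and did not pass in the third. In the YTHDF1 RIP of YTHDF1-ADAR cells it had 121, 131 and 116 CPM against 171, 196 and 207 in input and fell by 0.64 ± 0.17, without overlap (adjusted p = 0.00203). In YTHDF2-ADAR cells 176, 208 and 207 against 271, 251 and 247 gave a fall of 0.38 ± 0.17, again without overlap (adjusted p = 0.0458). This call was lost without YTHDF1 RIP replicate 2 (-0.43, adjusted p = 0.0537), and upper-quartile scaling turned it to 0.16. In YTHDF3-ADAR cells 172, 207.5 and 180.2 overlapped 194, 197 and 194.5 in input, with a log2 difference of -0.07 ± 0.17 (adjusted p = 0.741). Without strand in the counting, ATXN2L shares 524 and 292 of its 6508 exon bases with 2 unnamed genes, the largest overlap of any member.

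PABPC1, which coats poly(A) tails and marks granules, was the member most depleted in the YTHDF1 RIPs of YTHDF2-ADAR and YTHDF3-ADAR cells. PABPC1 (chr8:100685816-100722809, minus strand) had 198.5, 213 and 225 CPM against 749, 701 and 774.5 in input in YTHDF2-ADAR cells, and 185, 203 and 166 against 573, 541.5 and 571 in YTHDF3-ADAR cells. The highest RIP value was under 226 and the lowest input value over 541, and PABPC1 fell by 1.81 ± 0.19 and 1.61 ± 0.19 (adjusted p = 3.71e-10 and 4.29e-09). In YTHDF1-ADAR cells 250.3, 249.7 and 286 stood below 442, 571 and 752 in input, a fall of 1.17 ± 0.18 (adjusted p = 1.60e-06). PABPC1 has near-identical copies in the genome with which reads may be shared. The most covered of them, PABPC3, had a median count of 42 against 15828.5 for PABPC1.

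FXR1 (chr3:180868141-180982753, plus strand) was also depleted in each line. Its YTHDF1 RIP values were 34.1, 35.6 and 64.8 CPM against 72.4, 99.8 and 104 in input in YTHDF1-ADAR cells. They were 81.8, 74 and 74.8 against 135, 116 and 130.4 in YTHDF2-ADAR cells, and 66.4, 66.9 and 63.1 against 117, 98.7 and 107.5 in YTHDF3-ADAR cells. No RIP value reached an input value of its line, and FXR1 fell by 1.04 ± 0.17, 0.73 ± 0.17 and 0.72 ± 0.17 (adjusted p = 4.59e-06, 3.64e-04 and 4.65e-04). Under upper-quartile scaling the latter 2 became -0.18 and -0.17 and did not pass (adjusted p = 0.302 and 0.325).

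**Figure D3:**
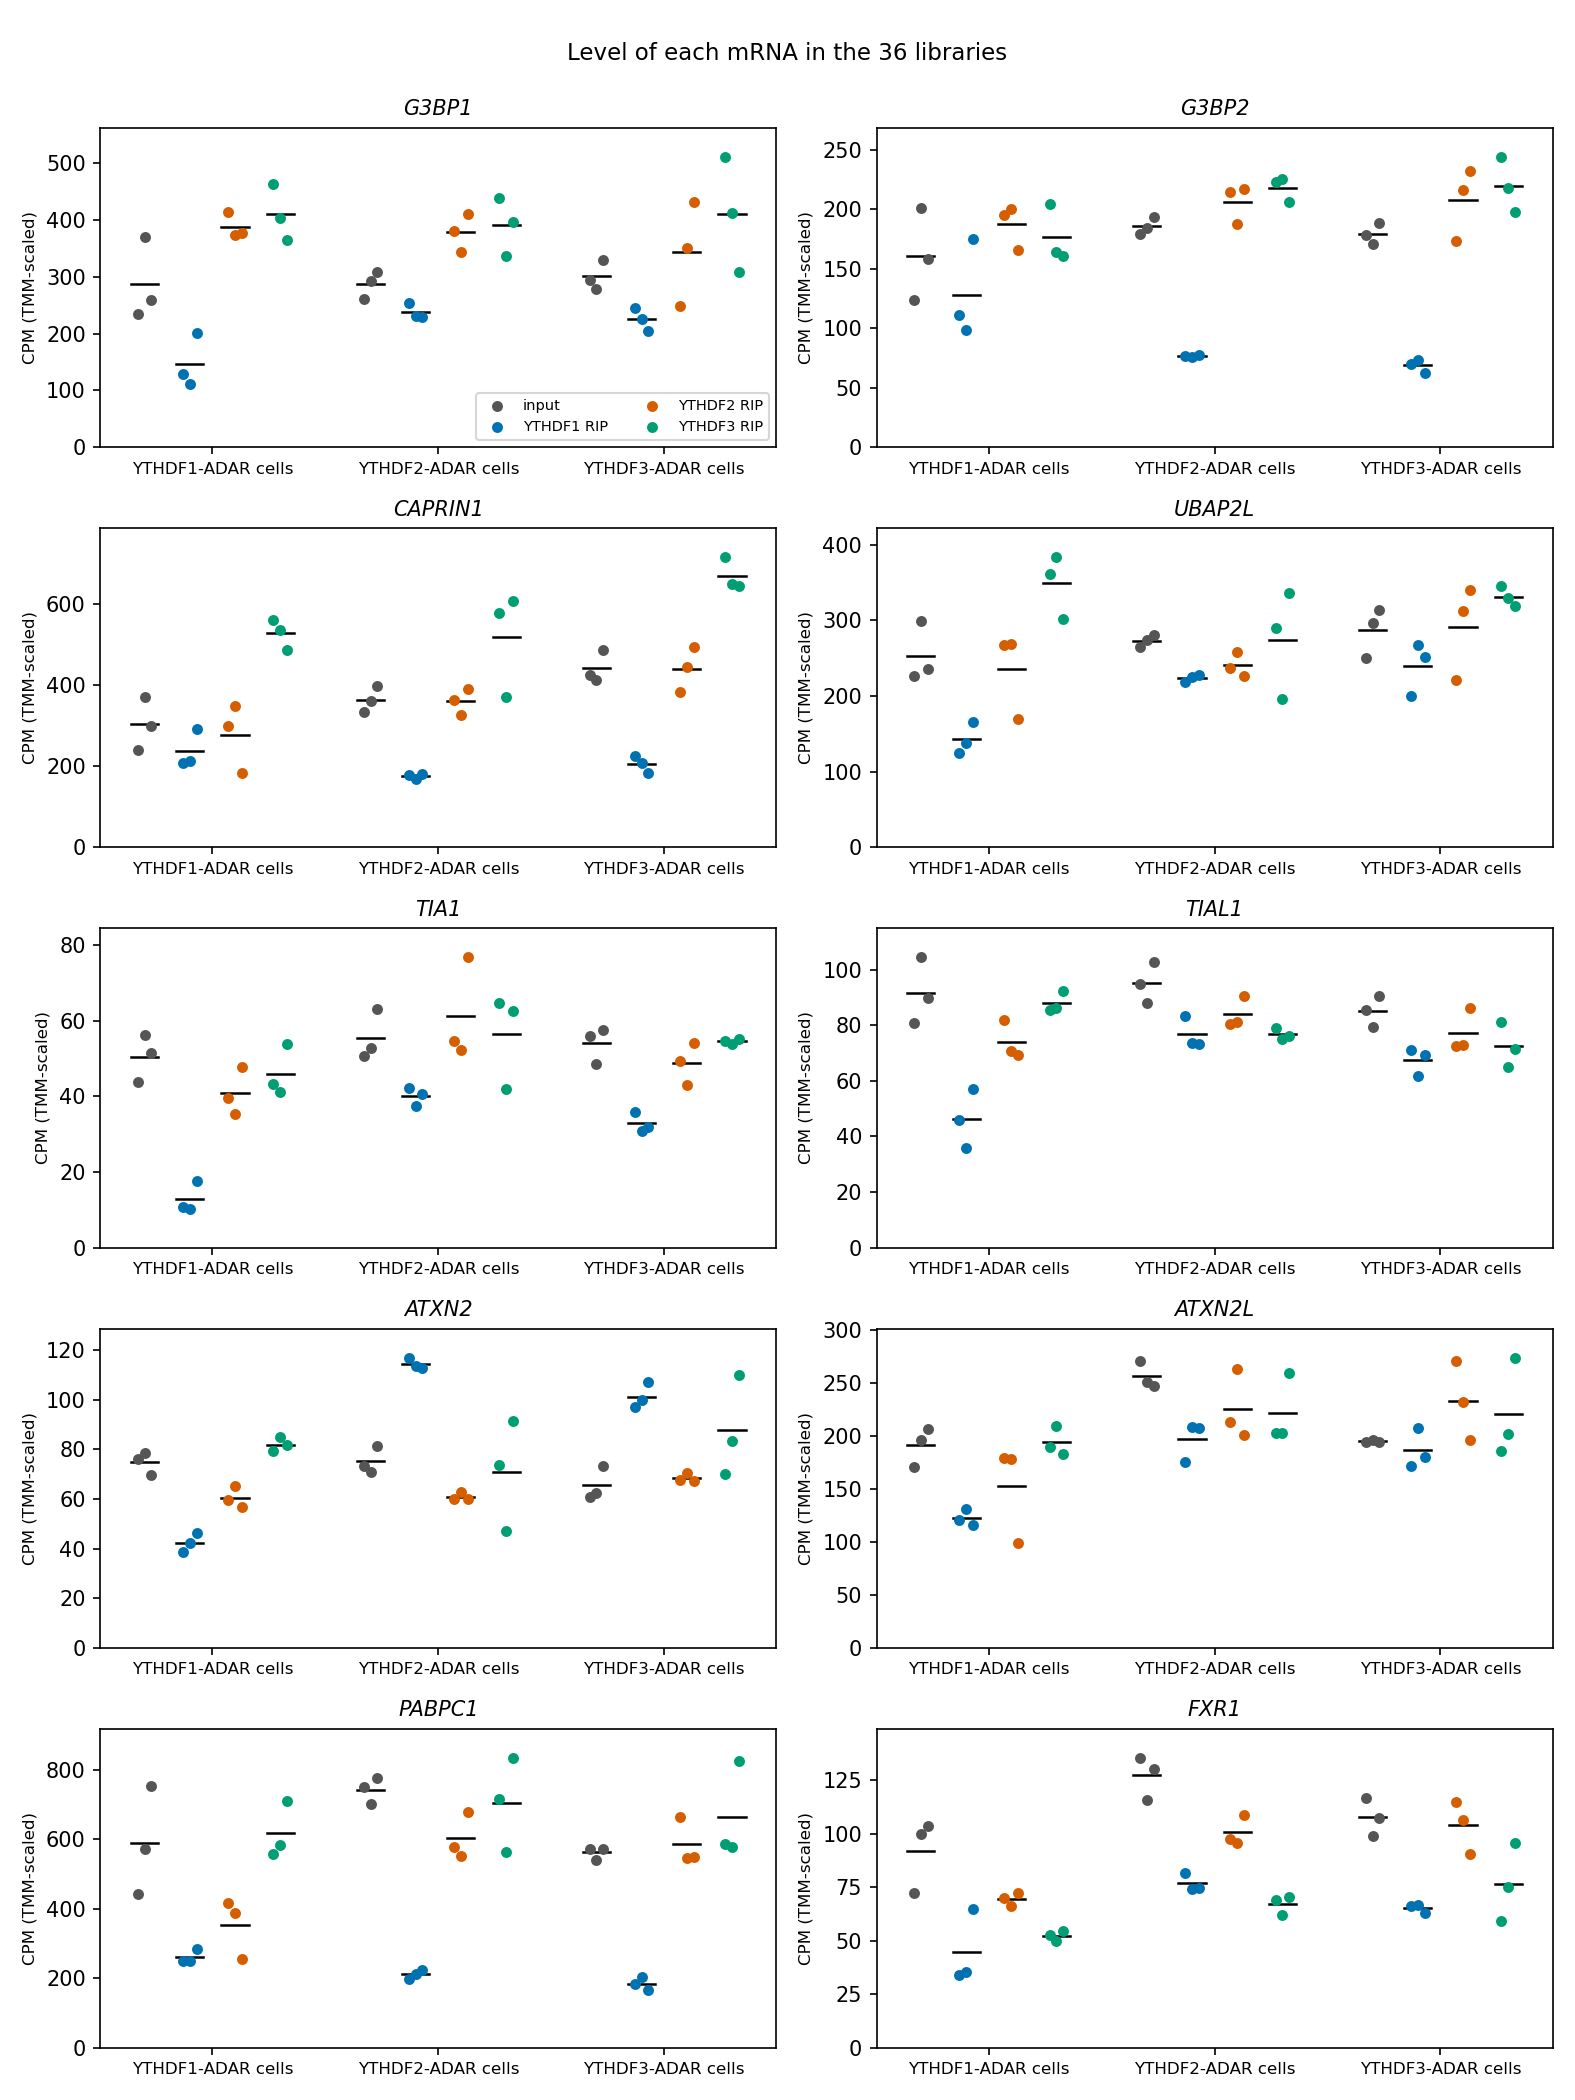
Level of each member mRNA in the 36 libraries, in TMM-scaled CPM, with 1 panel per gene, 3 points per group in colours by RIP or input, and the group mean as a line. TIA1 in the YTHDF1 RIP of YTHDF1-ADAR cells (10.2 to 17.7) lies under every other group, and ATXN2 in the YTHDF1 RIP of the other 2 lines (97.1 to 117) lies above its inputs.

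The difference between lines in the YTHDF1 RIP was itself tested, as an interaction over the 3 lines. It passed for 5 of 10 members, beside 63.7% of all genes tested. Relative to the mean of the other lines, YTHDF1-ADAR cells had higher values for G3BP2 (1.00 ± 0.20, interaction adjusted p = 2.88e-04) and CAPRIN1 (0.73 ± 0.23, 0.0218). They had lower values for ATXN2 (-1.44 ± 0.19, 2.79e-07), TIA1 (-1.37 ± 0.22, 7.67e-06) and TIAL1 (-0.66 ± 0.17, 0.0032). The median of all genes for the same difference was -0.45. G3BP1 (-0.62 ± 0.24, 0.064), PABPC1 (0.54 ± 0.22, 0.0792), UBAP2L (-0.55 ± 0.22, 0.0887), ATXN2L (-0.42 ± 0.21, 0.106) and FXR1 (-0.31 ± 0.21, 0.409) did not pass the interaction test. Between YTHDF2-ADAR and YTHDF3-ADAR cells the members' YTHDF1 RIP differences from input were -0.31 to 0.25 apart, with every adjusted p at 1. The interaction of CAPRIN1 did not pass under upper-quartile scaling or total counts, and that of TIAL1 was lost in 14 of 18 fits that left out 1 library (adjusted p from 0.0763 to 0.778). YTHDF1-ADAR cells hold the YTHDF1 RIP libraries that did not stand apart, so the line and the make-up of those libraries cannot be told apart.

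A ratio of counts of 2 genes within a library does not depend on how libraries are scaled. The log2 ratio of G3BP1 to G3BP2 was 0.21, 0.19 and 0.20 in the YTHDF1 RIP of YTHDF1-ADAR cells, against 0.92, 0.88 and 0.71 in input. In YTHDF2-ADAR cells it was 1.73, 1.61 and 1.56 against 0.54, 0.66 and 0.67, and in YTHDF3-ADAR cells 1.80, 1.63 and 1.70 against 0.72, 0.71 and 0.81. The RIP therefore lay below input in YTHDF1-ADAR cells and above it in the other lines, with no overlap in any. The ratio of ATXN2 to ATXN2L was -0.59, -0.88 and -0.88 in the YTHDF1 RIP of YTHDF2-ADAR cells against -1.88, -1.83 and -1.61 in input, and -0.82, -1.06 and -0.75 against -1.68, -1.65 and -1.41 in YTHDF3-ADAR cells, again above input without overlap. In YTHDF1-ADAR cells it was -1.65, -1.64 and -1.33 against -1.17, -1.32 and -1.57, which overlapped. The ratio of TIA1 to TIAL1 was -2.09, -1.81 and -1.69 in the YTHDF1 RIP of YTHDF1-ADAR cells against -0.88, -0.89 and -0.81 in input, below it. In YTHDF2-ADAR cells it was -0.98, -0.98 and -0.85 against -0.90, -0.73 and -0.70, which overlapped, and in YTHDF3-ADAR cells -0.99, -1.0 and -1.11 against -0.61, -0.70 and -0.65, again below. With 3 libraries against 3, an exact permutation test cannot give a two-sided p under 0.10, so these ratios are given without one.

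**Figure D4:**
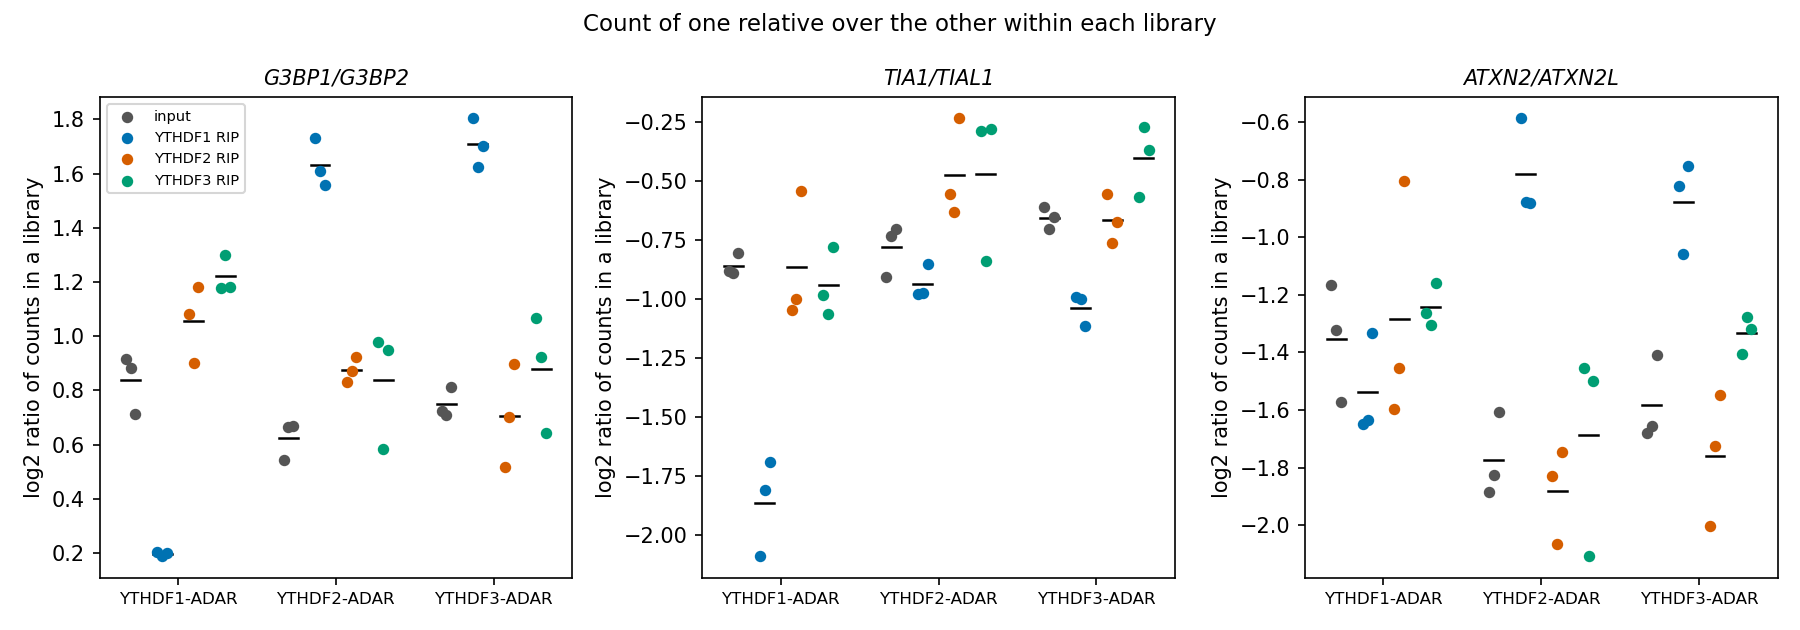
Log2 ratio of the counts of 2 related mRNAs within each library, for G3BP1 over G3BP2, TIA1 over TIAL1 and ATXN2 over ATXN2L, with 3 points and the mean as a line per group. The G3BP ratio of the YTHDF1 RIP averages 0.20 in YTHDF1-ADAR cells and 1.63 and 1.71 in the others, while input means lie between 0.63 and 0.84.

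PABPC1 was the only member called in the YTHDF2 RIP by line. By edgeR's quasi-likelihood test 0 members rose and 1 fell in YTHDF1-ADAR cells, beside 8.66% and 15.5% of all genes. None of the 10 were called (0 in each line) in YTHDF2-ADAR cells, beside 10.2% higher and 10.1% lower, or in YTHDF3-ADAR cells, beside 8.98% and 9.93%. At an unadjusted p under 0.05 the counts were 4, 1 and 0 in the 3 lines, and DESeq2 called 2, 0 and 0. The shares above belong to the adjusted edgeR calls, so these other counts are not read as a result about the members. The 1 called was PABPC1, with 416, 387 and 255 CPM in the YTHDF2 RIP of YTHDF1-ADAR cells, below the lowest input value of 442. It fell by 0.74 ± 0.18 (adjusted p = 0.00226), and the call was lost without YTHDF2 RIP replicate 3 or input replicate 3 (-0.50 to -0.43, adjusted p from 0.0843 to 0.174). The members' medians were -0.31, -0.18 and 0.04, beside -0.11, 0.02 and 0.00 over all genes.

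G3BP1 showed the highest YTHDF2 RIP difference among members in the first 2 lines. Its YTHDF2 RIP values were 414, 374 and 377 CPM in YTHDF1-ADAR cells and 381.5, 344 and 411.5 in YTHDF2-ADAR cells, above all inputs of the same line. In YTHDF3-ADAR cells 248, 352 and 433 overlapped input. The log2 differences were 0.43 ± 0.20, 0.40 ± 0.20 and 0.19 ± 0.20 (adjusted p = 0.115, 0.16 and 0.57). Averaged over the 3 lines (9 libraries against 9, a comparison added after the values by line were seen), G3BP1 rose by 0.34 ± 0.11 (adjusted p = 0.0148). PABPC1 fell by 0.33 ± 0.11 (0.0119), FXR1 by 0.27 ± 0.10 (0.0312) and TIAL1 by 0.21 ± 0.08 (0.0298). These 1 higher and 3 lower members stand beside 17.9% and 21.8% of all genes. Leaving out 1 library ended the call of G3BP1 in 6 of 18 fits, PABPC1 in 5, FXR1 in 11 and TIAL1 in 14. Without the 6 libraries of unlike make-up FXR1 and TIAL1 did not pass (-0.25 and -0.20, adjusted p = 0.0610 and 0.0557). Differences between lines in the YTHDF2 RIP were not called for any member (0 of 10 by edgeR, 0.0% of all genes, 1 member at an unadjusted p under 0.05, 0 by DESeq2).

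In the YTHDF3 RIP CAPRIN1 rose and FXR1 fell in every line, though CAPRIN1 overlapped input in YTHDF2-ADAR cells. In YTHDF1-ADAR cells 3 members rose and 1 fell, beside 11.5% and 20.1% of all genes. In YTHDF2-ADAR cells 1 rose and 1 fell, beside 15.2% and 16.9%. In YTHDF3-ADAR cells 2 rose and 1 fell, beside 13.5% and 16.1%. The members' medians were 0.10, -0.03 and 0.22, beside -0.23, 0.09 and 0.01 over all genes.

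CAPRIN1 had 561, 534 and 486 CPM in the YTHDF3 RIP of YTHDF1-ADAR cells, above every input value, and rose by 0.80 ± 0.19 (adjusted p = 0.00101). This call held in each of 6 fits that left out 1 library. In YTHDF2-ADAR cells the values 577, 370.4 and 607 overlapped input through replicate 2, and CAPRIN1 rose by 0.51 ± 0.19 (adjusted p = 0.0334). In YTHDF3-ADAR cells all of 714, 648 and 643.5 were above input, and it rose by 0.60 ± 0.19 (adjusted p = 0.0131). In YTHDF2-ADAR cells the call was lost without any 1 of the 6 libraries except YTHDF3 RIP replicate 2 (0.32 to 0.49, adjusted p from 0.122 to 0.335), and without the 6 libraries of unlike make-up (0.48, adjusted p = 0.0580). In YTHDF3-ADAR cells it was lost without replicate 1 or 2 of the YTHDF3 RIP or of the input (0.50 to 0.56, adjusted p from 0.0750 to 0.120). Leaving out 1 library moved the median of all genes too. It went from 0.090 to between 0.0 and 0.027 in YTHDF2-ADAR cells and from 0.009 to between -0.049 and -0.003 in YTHDF3-ADAR cells.

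FXR1 had 52.9, 49.9 and 54.5 CPM in the YTHDF3 RIP of YTHDF1-ADAR cells, 69.2, 62.1 and 70.4 in YTHDF2-ADAR cells and 59.2, 75 and 95.4 in YTHDF3-ADAR cells. Every value was below the inputs of its line. FXR1 fell by 0.81 ± 0.17, 0.92 ± 0.17 and 0.49 ± 0.17 (adjusted p = 3.16e-04, 6.38e-05 and 0.0275). The first 2 calls held whichever library was left out. The third was lost without YTHDF3 RIP replicate 1 or 2 or input replicate 1 or 3 (-0.54 to -0.39, adjusted p from 0.0554 to 0.173), and also under upper-quartile scaling, total counts, without the filter on low counts and without the 6 libraries of unlike make-up (-0.47, adjusted p = 0.0548).

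G3BP1 had 463.5, 404 and 365 CPM in the YTHDF3 RIP of YTHDF1-ADAR cells, which overlapped input, and rose by 0.51 ± 0.20 (adjusted p = 0.0434). The other lines gave 440.0, 338 and 397, all above input, and 511, 413 and 309, which overlapped it. Their log2 differences of 0.45 ± 0.20 and 0.45 ± 0.20 did not pass (adjusted p = 0.0812 and 0.0869). UBAP2L rose in YTHDF1-ADAR cells, where 361, 384 and 302 CPM lay above every input, by 0.46 ± 0.18 (adjusted p = 0.0494). Both calls in YTHDF1-ADAR cells were lost without YTHDF3 RIP replicate 1 or input replicate 1 or 3 (G3BP1 0.41 to 0.57, adjusted p from 0.0745 to 0.159; UBAP2L 0.41 to 0.56, 0.0519 to 0.132). ATXN2 rose in YTHDF3-ADAR cells, by 0.42 ± 0.15 (adjusted p = 0.034), although its values of 70.2, 83.2 and 109.9 overlapped input. That call was lost without any 1 of the 6 libraries except YTHDF3 RIP replicate 1 (0.20 to 0.46, adjusted p from 0.0590 to 0.447).

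Averaged over the 3 lines (added after the values by line were seen), CAPRIN1 rose by 0.64 ± 0.11 in the YTHDF3 RIP (adjusted p = 5.39e-06), and G3BP1 by 0.47 ± 0.11 (6.80e-04). FXR1 fell by 0.74 ± 0.10 (6.94e-08) and TIAL1 by 0.20 ± 0.08 (0.0319). These 2 higher and 2 lower members stand beside 21.7% and 26.1% of all genes. Leaving out any 1 of the 18 libraries kept the calls of CAPRIN1, G3BP1 and FXR1, while TIAL1 was lost in 13 of 18 fits and without the 6 libraries of unlike make-up (-0.14, adjusted p = 0.163). No member was called for a difference between lines in the YTHDF3 RIP (0 of 10 by edgeR, 0.00628% of all genes, 0 at an unadjusted p under 0.05, 0 by DESeq2). The authors' values for each RIP are not split by line, and their headings do not name the lines used. In the authors' deposited table CAPRIN1 had a log2 fold change of 0.71 in the YTHDF3 RIP (adjusted p = 8.22e-05), G3BP1 0.55 (0.000170) and FXR1 -0.66 (1.80e-05). It does not call TIAL1 there (-0.11, 0.347 in the authors' deposited table). For the YTHDF2 RIP the authors' deposited table calls G3BP1 (0.44, 0.00421) but not the other members that passed in the average above, PABPC1 (-0.21, 0.352), FXR1 (-0.17, 0.371) and TIAL1 (-0.11, 0.372). For the YTHDF1 RIP the authors' deposited table gives PABPC1 -1.75 (2.13e-26) and ATXN2 -0.03 (1).

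Set directly against each other in YTHDF1-ADAR cells, the YTHDF1 RIP held less of most members than the other RIPs. Compared with the YTHDF2 RIP, 7 members were lower in the YTHDF1 RIP and 0 were higher, beside 18.8% lower and 20.3% higher of all genes. TIA1 (-1.66 ± 0.18, adjusted p = 3.57e-09) and G3BP1 (-1.40 ± 0.20, 4.78e-07) differed most, and CAPRIN1, ATXN2L and PABPC1 did not pass (-0.22, -0.31 and -0.43). Compared with the YTHDF3 RIP, 9 were lower and 0 higher, beside 18.7% lower and 22.4% higher of all genes. TIA1 (-1.83 ± 0.18, 3.57e-10), G3BP1 (-1.48 ± 0.20, 1.43e-07) and UBAP2L (-1.29 ± 0.18, 4.10e-07) led. FXR1, already low with YTHDF3, did not pass (-0.23 ± 0.17, 0.322). Against the YTHDF2 RIP, the FXR1 call was lost without YTHDF1 RIP replicate 1 or 2 (adjusted p = 0.0595 and 0.0683). G3BP2 lost its call in 2 of 6 fits that left out 1 library of the first comparison (YTHDF1 RIP replicate 1 or 2; adjusted p = 0.0790 and 0.123) and in 3 of 6 of the second (YTHDF1 RIP replicate 1 or 2 or YTHDF3 RIP replicate 1; adjusted p from 0.0985 to 0.153).

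Between the YTHDF2 and YTHDF3 RIPs, CAPRIN1 was lower with YTHDF2 in all 3 lines. In YTHDF1-ADAR cells 4 members were lower with YTHDF2, beside 8.51% of all genes. CAPRIN1 had a log2 difference of -0.93 ± 0.19 (adjusted p = 4.20e-04), PABPC1 -0.81 ± 0.18 (0.00136), UBAP2L -0.57 ± 0.18 (0.0234) and ATXN2 -0.44 ± 0.15 (0.0416). In YTHDF2-ADAR cells 2 members were called, beside 20.4% of all genes in either direction. They were CAPRIN1 (-0.53 ± 0.19, 0.0429) and FXR1, which was higher with YTHDF2 (0.58 ± 0.17, 0.0132). In YTHDF3-ADAR cells 1 was called lower, beside 5.74%, and it was CAPRIN1 again (-0.61 ± 0.19, 0.0247). FXR1 had 0.41 ± 0.17 and 0.44 ± 0.17 in YTHDF1-ADAR and YTHDF3-ADAR cells, which did not pass (0.0998 and 0.0831). The CAPRIN1 calls in YTHDF2-ADAR and YTHDF3-ADAR cells were each lost in 3 of 6 fits that left out 1 library (adjusted p from 0.0589 to 0.294 and from 0.0594 to 0.119), and that in YTHDF1-ADAR cells in none. In YTHDF1-ADAR cells the call of ATXN2 was lost in 3 of 6 such fits (adjusted p from 0.0656 to 0.0830). That of UBAP2L was lost in 1 (0.153) and that of PABPC1 in none. The FXR1 call in YTHDF2-ADAR cells was lost in 2 of 6 (adjusted p = 0.0630 and 0.0901).

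Other components of the granule, from a list of 41 genes of which 40 were tested, moved in both directions. In the YTHDF1 RIP 10 rose and 24 fell in YTHDF1-ADAR cells, 0 rose and 24 fell in YTHDF2-ADAR cells, and 1 rose and 26 fell in YTHDF3-ADAR cells. These counts stand beside 20.6%, 41.8% and 40.8% of all genes higher in the 3 lines and 28.8%, 33.4% and 32.4% lower. The medians were -0.45, -0.73 and -0.80, beside -0.28, 0.20 and 0.21 over all genes. The genes of smallest p were the cap-binding protein EIF4E (-2.0) and the G3BP-binding deubiquitinase USP10 (1.99) in YTHDF1-ADAR cells, and the RNA-binding proteins ELAVL1 (-1.73 and -1.77) and STAU1 (-1.63 and -1.48) in the other lines. USP10 and CAPRIN1 bind the same G3BP surface, and their mRNAs lay apart in the YTHDF1 RIP of YTHDF1-ADAR cells, at 1.99 and -0.35. In the YTHDF2 RIP 13 rose and 7 fell, 10 rose and 5 fell, and 7 rose and 4 fell in the 3 lines, beside 8.66%, 10.2% and 8.98% of all genes higher in the 3 lines and 15.5%, 10.1% and 9.93% lower. The medians were 0.18, 0.23 and 0.23, beside -0.11, 0.02 and 0.00 over all genes. UPF1, the nonsense-mediated decay helicase, had the smallest p in each line (1.04, 0.87 and 0.83), though EIF3B rose more in YTHDF1-ADAR cells (1.37) and TARDBP in YTHDF2-ADAR cells (1.52). In the YTHDF3 RIP 12 rose and 10 fell, 12 rose and 6 fell, and 10 rose and 8 fell, beside 11.5%, 15.2% and 13.5% of all genes higher in the 3 lines and 20.1%, 16.9% and 16.1% lower. The medians were 0.12, 0.14 and 0.24, beside -0.23, 0.09 and 0.01 over all genes. EIF4E (-1.71, -1.42 and -1.32) and the cold-shock protein RBM3 (-1.56, -1.64 and -1.62) fell in each line.

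A list of 10 genes held EIF2S1, which encodes eIF2α itself, its 4 kinases and 5 subunits of its phosphatase, which together set the signal that starts granule formation. The shares and medians of all genes to set beside its counts are those just given for each RIP and line. In the YTHDF1 RIP 4 rose and 6 fell in YTHDF1-ADAR cells, 0 rose and 10 fell in YTHDF2-ADAR cells, and 0 rose and 8 fell in YTHDF3-ADAR cells (medians -1.11, -1.29 and -1.47). The regulatory subunit PPP1R15B rose by 1.53 and the kinase EIF2AK2 (PKR) fell by 1.66 in YTHDF1-ADAR cells. The catalytic subunits PPP1CB (-2.42 and -2.32) and PPP1CC (-2.03 and -2.13) fell in the other lines. In the YTHDF2 RIP 2 rose and 3 fell, then 2 rose and 2 fell in each of the other lines (medians 0.03, 0.06 and 0.05). In the YTHDF3 RIP 4 rose and 3 fell in each of the first 2 lines, and 3 rose and 2 fell in YTHDF3-ADAR cells (medians 0.01, 0.10 and 0.17). The kinase EIF2AK4 (GCN2) rose there by 1.12, 0.99 and 1.15, and PPP1CA fell (-1.78, -1.28 and -1.45).

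Close relatives of the members, 7 genes, moved in both directions, and the same shares and medians of all genes apply. In the YTHDF1 RIP 0 rose and 6 fell in YTHDF1-ADAR cells, 3 rose and 2 fell in YTHDF2-ADAR cells, and 3 rose and 3 fell in YTHDF3-ADAR cells, with medians of -0.79, -0.33 and -0.59. The fragile X protein gene FMR1 fell by 1.56 in YTHDF1-ADAR cells. PABPC1L had -1.44 there and 1.56 and 1.30 in the other lines, where PABPC1 had -1.17, -1.81 and -1.61. In the YTHDF2 RIP 1 rose and 1 fell, 1 rose and 0 fell, and 1 rose and 1 fell (medians -0.01, 0.02 and -0.05). FXR2 rose there in each line (0.60, 0.63 and 0.44), where FXR1 had -0.41, -0.34 and -0.05. In the YTHDF3 RIP 1 rose in each of YTHDF1-ADAR and YTHDF2-ADAR cells and 0 in YTHDF3-ADAR cells, and 0 fell (medians 0.17, 0.25 and -0.01), where 11.5%, 15.2% and 13.5% of all genes rose. UBAP2 rose by 0.66 in YTHDF1-ADAR cells, beside 0.46 for UBAP2L.

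Editing was read from the authors' deposited tables, which pool replicates and list 7829 genes for YTHDF1-ADAR cells, 2402 for YTHDF2-ADAR cells and 2944 for YTHDF3-ADAR cells. Uninduced cells were not analysed, so whether a fusion or the cells' own enzymes edited a site was not tested. Of the 10 members, 7, 4 and 5 were listed, and TIA1, ATXN2L and FXR1 were in none of the 3 tables. The depth behind these values is unknown, so no interval is given. The level is the deposited score divided by the number of sites, as a percent, a reading inferred from the values. In YTHDF1-ADAR cells G3BP2 had the most sites, 18, with 1.40% in input and 3.02%, 2.57% and 2.26% in the YTHDF1, YTHDF2 and YTHDF3 RIPs. It was higher in each RIP than in input, but the authors' deposited table calls none (natural log odds ratio 0.79 and adjusted p = 0.0506 in the YTHDF1 RIP). G3BP1 had 3 sites and went the other way, from 1.86% in input to 1.56%, 1.83% and 1.32%. The 1 site of PABPC1 was also lower in each RIP, with 9.15% in input and 1.69%, 5.08% and 0% in the RIPs. The 1 site of ATXN2 was higher in each, with 0.732% in input and 1.28%, 1.81% and 2.81%. TIAL1 had 12 sites (2.18% to 3.19%, 3.50% and 2.23%), and CAPRIN1 9 sites (1.14% to 2.31%, 1.54% and 1.46%). UBAP2L had the highest level, 12.2% over 3 sites in input and 18.7%, 13.8% and 19.1% in the RIPs. The median over all genes listed was 2.50% in input and 3.71%, 3.40% and 3.19% in the RIPs. Of the 7 listed members, 0 were called in each RIP by the authors' deposited table, beside 8.12%, 1.63% and 1.12% of all genes listed.

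In YTHDF2-ADAR cells the authors' deposited table again calls 0 of the 4 listed members in any RIP, beside 2.66%, 0.25% and 1.46% of the genes listed. The median over all genes listed for these cells was 0.990% in input and 0.578%, 0.979% and 1.28% in the YTHDF1, YTHDF2 and YTHDF3 RIPs. TIAL1 had 4 sites, with 4.16% in input and 3.31%, 4.42% and 2.84% in the RIPs. CAPRIN1, with 2 sites, was at 0% in input and 1.63%, 0.0880% and 0.0577% in the RIPs. The 1 site of PABPC1 had 8.16% in input, 8.76% and 1.82% in the YTHDF1 and YTHDF3 RIPs, and 28.3% in the YTHDF2 RIP, a natural log odds ratio of 1.49 that the authors' deposited table does not call (adjusted p = 0.779). In YTHDF3-ADAR cells 2 of the 5 listed members were called in the YTHDF1 RIP and 0 in the YTHDF2 and YTHDF3 RIPs, beside 2.92%, 0.102% and 1.83% of all listed. The YTHDF1 RIP libraries of these cells are among the 6 of unlike make-up. For that RIP 54.9% of deposited ratios of genes with a value in every arm matched the reading used here. The members' ratios that could be recomputed matched. TIAL1, with 8 sites, was at 10.9% in input, 4.81% in the YTHDF1 RIP, 13.2% in the YTHDF2 RIP and 9.59% in the YTHDF3 RIP. In the authors' deposited table the YTHDF1 value is lower than input (natural log odds ratio -0.88, adjusted p = 3.44e-06). Most genes listed for YTHDF3-ADAR cells were also lower in that RIP, and 27.8% were above input. Their median was 1.15% in input and 0.576%, 1.05% and 1.42% in the YTHDF1, YTHDF2 and YTHDF3 RIPs. CAPRIN1, with 1 site, was at 0.116% in input and 1.81% in the YTHDF1 RIP (natural log odds ratio 2.76, adjusted p = 0.00271 in the authors' deposited table), and at 0.220% and 0.118% in the other RIPs. The site of PABPC1 was at 7.55% in input, 7.28% in the YTHDF1 RIP, 0% in the YTHDF2 RIP and 18.2% in the YTHDF3 RIP. G3BP1, with 2 sites, was at 0.223% in input and 0%, 0.165% and 1.83% in the RIPs. ATXN2 had values in YTHDF2-ADAR cells only for the YTHDF1 and YTHDF3 RIPs (16.5% and 15.5%, 2 sites) and in YTHDF3-ADAR cells only for the YTHDF1 RIP (21.0%, 1 site).

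**Figure D5:**
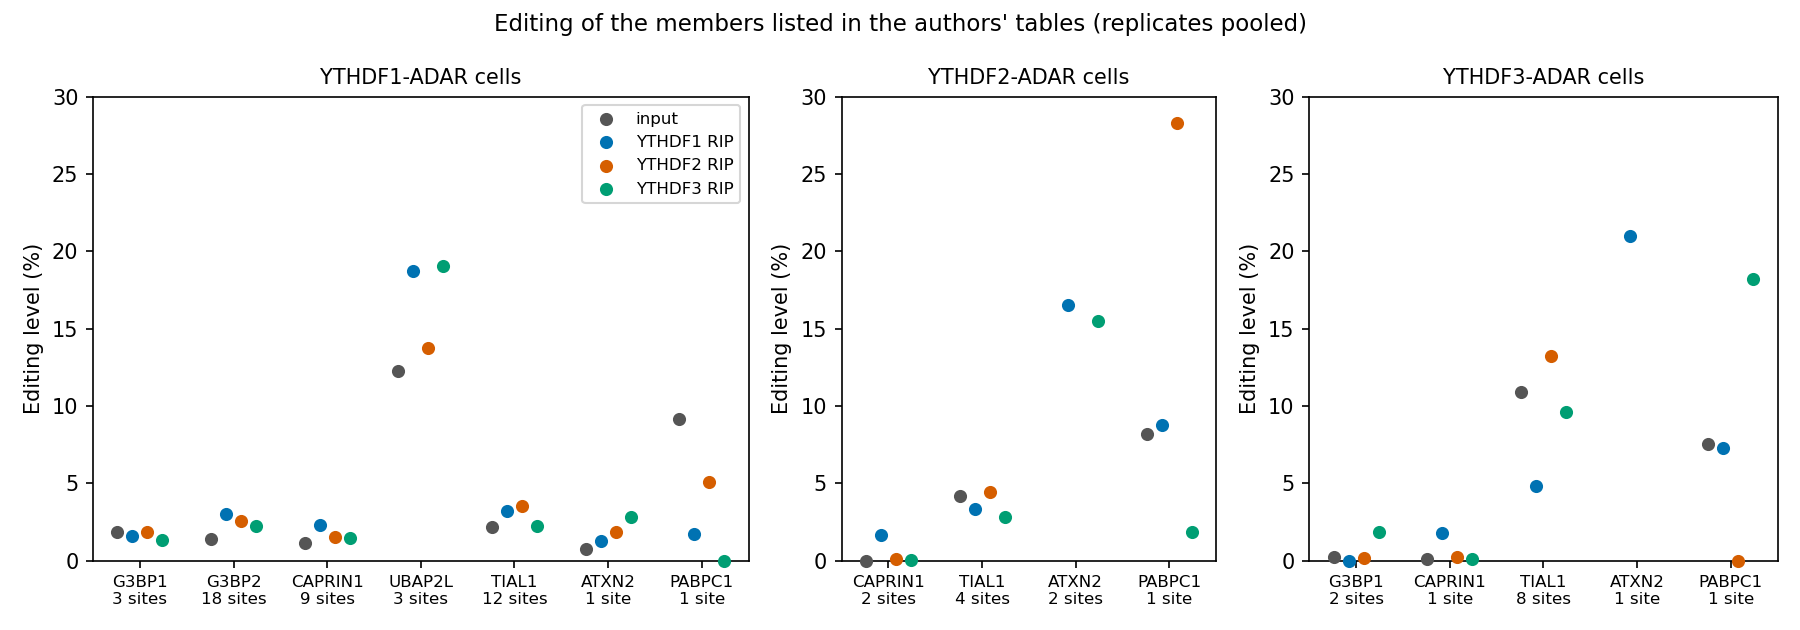
Editing level in percent of the members listed in the authors' deposited tables, 1 panel per line, with the number of sites under each gene and 1 point for input and each RIP (replicates pooled, so no error bar). In YTHDF3-ADAR cells TIAL1 lies at 4.81% in the YTHDF1 RIP and between 9.59% and 13.2% in the other 3 arms.

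Across the 12 group means of log2 CPM, some members followed each other closely. Pearson's r was 0.90 for TIA1 with TIAL1 and for G3BP2 with PABPC1, and 0.86 for CAPRIN1 with PABPC1. It was lower for the paralogs G3BP1 and G3BP2 (0.68) and for ATXN2 and ATXN2L (0.48), and negative for ATXN2 with G3BP2 (-0.47). Among 9046 other genes, the patterns most like that of G3BP1 were those of CHUK (0.979), ATP13A3 (0.977) and STRBP (0.976), and for PABPC1 those of RPN2 (0.991), PTBP1 (0.989) and GOLT1B (0.986). The nearest to G3BP2 was M6PR (0.994), to CAPRIN1 PIP5K1A (0.993), to TIA1 REPS1 (0.988) and to FXR1 ACP1 (0.981). TIAL1 was nearest to HUS1 (0.959), ATXN2L to RNF44 (0.959), ATXN2 to UGGT2 (0.947) and UBAP2L to MIGA1 (0.942). These values describe 12 points that share libraries and scaling, and carry no p.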

How the data were processed

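RNA was measured by sequencing in 36 libraries, 3 in each of 12 groups taken from the labels (3 RIPs and an input for each of the 3 fusion lines). Per the labels' protocols, RNA was DNase-treated, depleted of rRNA and made into libraries with a directional kit. The submitters' processing notes name STAR 2.7.7, featureCounts 2.0.1, DESeq2 and the build GRCh38. The deposited table holds a read count per gene and library. Per the file headers, reads on several places or genes were counted for each, duplicates were ignored and no strand option was set, so genes that overlap or have near-identical copies can share reads. One entry of the table, a rat Apobec1 sequence, is no gene of these cells, took 3.48e-05% of counts and was left out. A second table deposited by the authors, from DESeq2, holds per gene the mean signal, the log2 fold change and the adjusted p-value of each RIP. The authors' deposited editing tables give, per gene with replicates pooled, the adjusted p-value, a natural log odds ratio, the site number and a score for each arm. The score was read here as an edited fraction multiplied by the site number. Over all genes with a value in every arm, 79.6% to 93.9% of deposited ratios matched the natural log odds ratio of that fraction, but 53.4% and 54.9% did in the YTHDF1 RIP of YTHDF2-ADAR and YTHDF3-ADAR cells. All the members' ratios that could be recomputed matched. The steps behind those tables are not given in the sources used here, so editing is described with no test of its own.

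Libraries held 12.5 to 37.5 M counts. The table holds 60675 genes, of which 31849 passed edgeR's filterByExpr. One model of the 12 groups was fitted to all of them with edgeR 4.0.16 in R 4.3.3 (TMM scaling, robust quasi-likelihood test), with limma 3.58.1 loaded beside it. P-values were adjusted by Benjamini-Hochberg over all genes tested, with a limit of 0.05. The fits were tested on simulated data with known changes before use. Alternatives were DESeq2 1.42.0, its size factors (RLE), upper-quartile scaling, total counts, no filter on low counts, leaving out the 6 libraries that stand apart, fitting only the libraries compared, the replicate number as a block, and leaving out each library in turn. Each fit with libraries left out was filtered and scaled anew, which can shift all genes at once. A call lost in such a fit need not rest on the library named. The averages over the 3 lines, and a fit without YTHDF1-ADAR input replicate 1 and YTHDF2 RIP replicate 3 (the 2 libraries nearest to the 6 that stand apart), were added after the data were seen. The 10 members are always named, and of each list of other genes at most the 2 of smallest p per comparison. The genes most like a member are those of highest Pearson correlation over the 12 group means, among tested genes with a mean log2 CPM of at least 4. Members and lists were chosen with earlier results of these data known. The symbol PRRC2B, of the list of other granule proteins, matched no gene by name and is not analysed here.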

Additional observations from a re-analysis of the deposited data

Results flagged for a closer look

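For 5 members the difference between YTHDF1 RIP and input itself differed between the 3 lines, by the interaction test of edgeR adjusted over all genes. Adjusted p was 0.000288 for G3BP2, 0.0218 for CAPRIN1, 7.67e-06 for TIA1, 0.00320 for TIAL1 and 2.79e-07 for ATXN2. Every YTHDF1 RIP library of YTHDF2-ADAR and YTHDF3-ADAR cells was also among the 6 that stood apart in depth and make-up, so line and library make-up cannot be told apart. The same test passed for 63.7% of all genes.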

How the results depend on the processing

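Counts of called members are given as value (value as reported). The share of all genes called changes with the setting too and is not given beside each count. The counts therefore describe dependence on processing and are not read as results about the members. With DESeq2 size factors the YTHDF1 RIP of YTHDF2-ADAR cells gave 5 (8), the YTHDF2 RIP of YTHDF1-ADAR cells 2 (1), and inputs of YTHDF1-ADAR against YTHDF2-ADAR cells 2 (0). The DESeq2 test gave the same 3 values, and 2 (1) for YTHDF2 against YTHDF3 RIP in YTHDF3-ADAR cells. Upper-quartile scaling gave 4 (8) for the YTHDF1 RIP of YTHDF2-ADAR cells, 3 (1) for the YTHDF2 RIP of YTHDF1-ADAR cells, and 4 (2) and 7 (3) for the YTHDF3 RIP of YTHDF2-ADAR and YTHDF3-ADAR cells. It gave 1 (2) and 2 (1) for YTHDF2 against YTHDF3 RIP in those lines, 8 (5) for the YTHDF1 interaction, and 2 (4) and 8 (4) for the averages of YTHDF2 and YTHDF3. It reversed TIA1 (0.074), TIAL1 (0.23) and ATXN2L (0.16) in the YTHDF1 RIP of YTHDF2-ADAR cells, TIAL1 (0.21) and ATXN2L (0.48) in that of YTHDF3-ADAR cells, and TIAL1 (0.047) and ATXN2L (0.24) in the YTHDF3 average. Total counts gave 4 (8) for the YTHDF1 RIP of YTHDF2-ADAR cells, with TIA1 at 0.051, TIAL1 at 0.21 and ATXN2L at 0.14. They gave 3 (1), 1 (0) and 2 (0) for the YTHDF2 RIP of the 3 lines, 4 (2) and 6 (3) for the YTHDF3 RIP of YTHDF2-ADAR and YTHDF3-ADAR cells, 8 (5) for the YTHDF1 interaction, and 2 (4) and 8 (4) for the averages, with TIAL1 at 0.070 and ATXN2L at 0.27 for YTHDF3.

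Without the filter on low counts, the values were 2 (1) for the YTHDF2 RIP of YTHDF1-ADAR cells, 1 (2) for the YTHDF3 RIP of YTHDF2-ADAR cells, 2 (4) for YTHDF2 against YTHDF3 RIP in YTHDF1-ADAR cells, 1 (0) for inputs of YTHDF1-ADAR against YTHDF2-ADAR cells and 1 (4) for the YTHDF2 average. Without the 6 libraries that stand apart they were 1 (2) for the YTHDF3 RIP of YTHDF2-ADAR cells, 2 (0) for inputs of YTHDF1-ADAR against YTHDF2-ADAR cells and 2 (4) for the YTHDF2 average, and 47.4% of calls over all genes between those inputs were higher (75.6%). Without the 2 libraries nearest to them, they were 2 (1) and 2 (4) for the YTHDF2 and YTHDF3 RIPs of YTHDF1-ADAR cells, 2 (4) between these RIPs, and 0 (1) for inputs of YTHDF1-ADAR against YTHDF3-ADAR cells. With only the libraries compared they were 0 (1) and 4 (0) for the YTHDF2 RIP of YTHDF1-ADAR and YTHDF2-ADAR cells, 4 (2) for the YTHDF3 RIP of YTHDF2-ADAR cells, 2 (4) for YTHDF2 against YTHDF3 RIP in YTHDF1-ADAR cells, and 0 (1) and 2 (0) for inputs of YTHDF3-ADAR cells against YTHDF1-ADAR and YTHDF2-ADAR cells. With the replicate block they were 1 (2) for the YTHDF3 RIP of YTHDF2-ADAR cells, 1 (2) for YTHDF2 against YTHDF3 RIP there, and 1 (0) and 0 (1) for inputs of YTHDF1-ADAR cells against the other lines. Of 54 same-numbered pairs 9 correlated above 0.1 and 11 below -0.1 (-0.395 to 0.418). All 3 did so only for the YTHDF2 and YTHDF3 RIPs of YTHDF1-ADAR cells (0.138 to 0.418), where the block called 4 members (4) and left FXR1 at an adjusted p of 0.0899. The same RIPs of YTHDF2-ADAR cells had 0.0653, 0.229 and 0.131. In the other comparisons a shared number may or may not mark a shared lysate, which such correlations cannot decide. The main fit took all libraries as unpaired. Where no cause is given, the cause was not tested.

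Leaving out 1 library gave 8 to 10, 5 to 9 and 7 to 9 members for the YTHDF1 RIP of the 3 lines (5 without YTHDF1 RIP replicate 2 of YTHDF2-ADAR cells), 0 to 3, 0 to 0 and 0 to 0 for the YTHDF2 RIP, and 2 to 5, 1 to 2 and 0 to 3 for the YTHDF3 RIP. YTHDF1 against YTHDF2 and YTHDF3 RIP gave 5 to 9 and 8 to 10, YTHDF2 against YTHDF3 RIP 2 to 4 (2 without YTHDF2 RIP replicate 3), 1 to 2 and 0 to 1, inputs 0 to 3, 0 to 1 and 0 to 0, the YTHDF1 interaction 5 to 6, the others 0, and the averages 0 to 4 and 3 to 7 (0 without YTHDF1-ADAR input replicate 3, and 7 without YTHDF1-ADAR YTHDF3 RIP replicate 2).

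Over all genes, calls between inputs of YTHDF1-ADAR and YTHDF2-ADAR cells numbered 5614, but 1093 without YTHDF1-ADAR input replicate 1, 1528 without the 2 libraries and 1620 with only the libraries compared. YTHDF1-ADAR against YTHDF3-ADAR inputs gave 5233, and 1095, 1555 and 1719. YTHDF2-ADAR against YTHDF3-ADAR inputs gave 1088, 3188 with only the libraries compared and 586 to 677 whichever 1 of the libraries compared was left out. With only the libraries compared, the YTHDF2 RIP gave 3859 (7678) and 9729 (6466) in YTHDF1-ADAR and YTHDF2-ADAR cells, and YTHDF2 against YTHDF3 RIP 3623 (6114) in YTHDF1-ADAR cells. The YTHDF3 interaction gave 2, and 0 to 238 in other fits. Higher and lower calls split as 13301 and 10641 in the YTHDF1 RIP of YTHDF2-ADAR cells and as 16944 and 6535 by upper-quartile scaling, and as 12990 and 10312 against 16946 and 6151 in YTHDF3-ADAR cells. For the YTHDF3 RIP the splits were 3647 and 6402 against 6498 and 4164, 4832 and 5370 against 7418 and 4031, and 4309 and 5132 against 6606 and 3928. For the YTHDF2 RIP total counts gave 4422 and 3248 (2757 and 4921), 5535 and 2210 (3234 and 3232), and 5174 and 2122 (2860 and 3162).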
